A study of Homo sapiens with 3 samples.

Results

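In MDA-MB-231 LM2 cells, which derive from a human triple-negative breast cancer line and colonise the lung, 243 of 67965 chromatin regions were both very long and about equally covered by H3.1/H3.2 and by H3.3. A region counted as very long from a length of 15000 bases. It counted as balanced where log2((H3.3 + 1)/(H3.1/H3.2 + 1)), taken from the mean pileup heights of both libraries with a pseudocount of 1, lay between -0.3 and 0.3. Members were thus chosen by their length and their mean heights, which are described below without a test. Of the 682 very long regions, another 301 leaned to H3.3 and 138 leaned to H3.1/H3.2, and both sets serve as the comparison.

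The series asked where histone H3 variants are enriched in this metastatic line, by chromatin immunoprecipitation and sequencing (ChIP-seq). It holds 1 H3.1/H3.2 ChIP made with 4 µg of an antibody that recognises both forms, 1 H3.3 ChIP made with 6 µg of another antibody, each from 30 µg of chromatin, and 1 input DNA, all read as 75 nt single-end reads. All come from the same LM2 cells, described as clones, and no treatment is named in their labels, while the column headers of both ChIPs name a GFP hairpin, which is absent from the sample labels. The input was not analysed here, so no height was divided by it. Each antibody has 1 library, so nothing could be checked against a replicate, and no p-value is given. The 95% intervals cover only counting error or the variation among regions. The protocols name no molecular identifiers. "Balanced" holds relative to the authors' scaling of both libraries, a step not given in the sources used here.

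The canonical H3 proteins, H3.1 and H3.2, are placed on DNA during replication by the CAF-1 chaperone. H3.3 is the replacement form, which HIRA and DAXX-ATRX place throughout the cell cycle, and it is best known for its enrichment over active promoters and transcribed gene bodies. A CpG island is a stretch rich in the dinucleotide CG that surrounds the start of many human genes.

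The longest balanced region, chr3:48548600-48610399 on hg38, held the starts of 4 protein-coding genes that differ widely in promoter CG content. Their 250 bases upstream of the most upstream RefSeq start (GRCh38.p14, 5′ to 3′ on the minus strand) are printed with every CG in capitals, because they span much of the range of CG content found in the 10 longest regions. UQCRC1 encodes a core subunit of respiratory complex III (chr3:48609647-48609896, 26 CG). PFKFB4 encodes an enzyme that sets the level of a sugar bisphosphate that regulates glycolysis (chr3:48556804-48557053, 18 CG). COL7A1 encodes the collagen of anchoring fibrils (chr3:48595330-48595579, 11 CG). UCN2 encodes the peptide hormone urocortin 2 (chr3:48563782-48564031, 3 CG).
UQCRC1: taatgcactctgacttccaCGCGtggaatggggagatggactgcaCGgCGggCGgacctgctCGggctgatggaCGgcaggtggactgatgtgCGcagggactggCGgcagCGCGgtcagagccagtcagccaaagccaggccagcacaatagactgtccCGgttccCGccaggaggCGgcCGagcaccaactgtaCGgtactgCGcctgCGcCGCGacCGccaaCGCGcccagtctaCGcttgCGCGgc
PFKFB4: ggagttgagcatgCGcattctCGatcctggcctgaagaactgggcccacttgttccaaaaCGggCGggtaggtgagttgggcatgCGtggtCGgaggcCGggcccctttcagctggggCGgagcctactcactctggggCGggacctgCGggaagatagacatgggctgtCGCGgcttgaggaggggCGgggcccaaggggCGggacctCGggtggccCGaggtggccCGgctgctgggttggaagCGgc
COL7A1: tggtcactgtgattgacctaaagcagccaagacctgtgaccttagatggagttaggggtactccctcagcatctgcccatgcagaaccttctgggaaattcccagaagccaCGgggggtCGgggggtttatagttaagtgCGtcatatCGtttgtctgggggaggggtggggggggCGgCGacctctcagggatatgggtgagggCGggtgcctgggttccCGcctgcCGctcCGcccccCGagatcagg
UCN2: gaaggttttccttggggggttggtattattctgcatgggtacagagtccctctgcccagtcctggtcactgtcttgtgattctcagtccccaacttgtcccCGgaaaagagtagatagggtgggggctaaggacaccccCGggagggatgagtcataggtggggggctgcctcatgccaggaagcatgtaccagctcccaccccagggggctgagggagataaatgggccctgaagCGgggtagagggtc

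Across the 10 longest regions, 24 protein-coding promoters had a RefSeq window, their CG counts ran from 3 to 33, and 21 held at least 10. The 187 protein-coding promoters with a start in any balanced region had a median of 20 CG (18 to 22), and 86.6% of them (80.9 to 91.2) held at least 10. The share was 72.0% (63.9 to 79.2) of 143 promoters in H3.3-leaning regions, 89.4% (79.4 to 95.6) of 66 in H3.1/H3.2-leaning regions and 68.3% of 15830 promoters genome-wide. The intervals of the share in balanced and H3.3-leaning regions did not overlap, but this rests on the limit of 10 CG. The median CG counts were 18 (15 to 21) in H3.3-leaning and 20 (18 to 24) in H3.1/H3.2-leaning regions, and their intervals overlapped that of balanced regions. The median GC content of the windows was 64.4% in balanced, 64.4% in H3.3-leaning and 63.2% in H3.1/H3.2-leaning regions. The letters TATAAA, searched on both strands, occurred in 9 of the 187 windows (4.81%), COL7A1 among them, in 10.5% and 7.58% of the windows in H3.3-leaning and H3.1/H3.2-leaning regions, and in 9.36% genome-wide. These intervals overlapped between the sets of regions.

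The balanced regions together covered 5.54 Mb. Their median length was 20599 bases (19799 to 21399), with a range from 15199 to 61799. The mean pileup height had a median of 12.3 (11.99 to 12.6) in the H3.1/H3.2 library and 12.1 (11.7 to 12.7) in the H3.3 library, against 6.62 and 7.76 over all regions. Both libraries were therefore well above their usual height in these regions, and the estimated depth was a median of 1137 tags from H3.1/H3.2 and 1170 from H3.3 per region. The median ratio was 0.01 on the log2 scale, and 122 members (50.2%) lay on the H3.3 side of 0. By comparison, in H3.3-leaning very long regions the H3.1/H3.2 library had a median height of 8.54 and the H3.3 library 15.7, and in H3.1/H3.2-leaning ones they had 13.6 and 8.81. The mean of both heights had medians of 12.2 in balanced, 12.1 in H3.3-leaning and 11.2 in H3.1/H3.2-leaning regions.

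**Figure D1:**
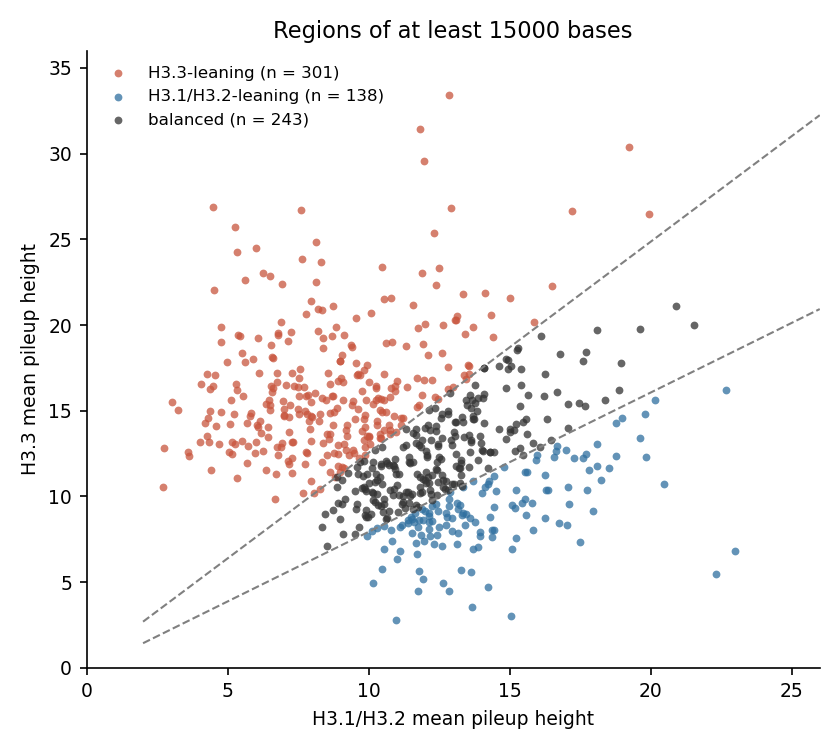
Mean pileup height of H3.1/H3.2 (x axis) against that of H3.3 (y axis) in every region of at least 15000 bases, 1 point per region; dashed lines mark the log2 limits of -0.3 and 0.3 that define the balanced set. The 243 balanced regions run from 8.34 to 21.5 for H3.1/H3.2 and from 7.09 to 21.1 for H3.3 along the diagonal.

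The limits of the ratio do not require equal heights, and the counting intervals that follow hold only at the authors' unknown scaling. The fold is the H3.3 mean divided by the H3.1/H3.2 mean, and its counting interval included 1 in 84 members (34.6%), lay above 1 in 73 (30.0%) and lay below 1 in 86 (35.4%). Over all regions, which have far fewer tags, it included 1 in 21.0%, lay above 1 in 45.2% and lay below 1 in 33.8%. The rule used these heights, and nothing is read from the contrast. A ratio within the limits was found in 10.1% of all regions, in 35.6% of very long regions and in 43.5% of the 11061 regions called in both ChIPs. All 243 members were called in both ChIPs, against 16.3% of all regions. The rule fixes much of that share, since a region with equal heights has signal in both libraries, and nothing is read from that either.

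The limits cut through a continuous range of values. Just inside the upper limit were the FOXK2 region on chromosome 17, with 12.9 for H3.1/H3.2, 16.05 for H3.3 and a log2 ratio of 0.296, the longest region on chromosome 3, and the CORO2A to TBC1D2 region on chromosome 9. Just outside it was the INPP5K to PITPNA region, with 8.29 and 10.4 and a ratio of 0.301. At the lower limit the CCDC154 to CLCN7 region was inside, with 11.8 in H3.1/H3.2 and 9.36 in H3.3, and the PANK2 region was outside, with 10.3 and 8.16. The shortest members had 15199 bases and the longest excluded regions, such as the MTA1 region with a ratio of -0.17, had 14999.

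The rule bounds the ratio of the means and leaves the peaks free, so a wider spread of the peak ratios was built in. The highest pileup had a median of 33 in the H3.1/H3.2 library and 36 in the H3.3 library, and it was a median of 2.60 and 2.84 times the mean of the same region. The log2 ratio of the peaks had a median of 0.08 and ran from -0.85 to 0.97, well past the limits that bound the means. Across the 243 members the ratio of means and the ratio of peaks had a Spearman rho of 0.49, a description of values from the same tags. It was 0.78 in H3.3-leaning and 0.52 in H3.1/H3.2-leaning regions.

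The largest peak excess of H3.3 was inside NPLOC4, which encodes a cofactor of the p97 segregase, where the peaks were 23 in H3.1/H3.2 and 46 in H3.3 and the means 9.85 and 12.0. The region that overlapped VHL, the tumour suppressor that targets HIF for destruction, had peaks of 29 and 55 with means of 9.92 and 10.3. The region of MED20, BYSL and the cell cycle gene CCND3 had peaks of 30 and 55 with means of 14.1 and 15.96. These regions were picked by their peak ratio, so peaks that differ by more than the means follow from the choice. The largest peak excess of H3.1/H3.2 was in a region that overlapped MYO9B on chromosome 19, with peaks of 55 in H3.1/H3.2 and 30 in H3.3 and means of 12.3 and 9.82. TNRC18 had 41 and 27. These 2 regions also sat near the lower limit of the ratio of means, at -0.29 and -0.22.

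The 10 longest regions had 7 to 15 called intervals each. Regions are named here by genes the authors assigned to them, and an assigned gene can lie outside its region; a gene is said to overlap where its RefSeq span meets the region. The longest, PFKFB4 to UQCRC1, had a mean of 14.1 in H3.1/H3.2 and 17.5 in H3.3, peaks of 33 and 54, 8 intervals, and a fold of 1.24 (1.19 to 1.30). At the authors' scaling its counting interval thus lay above 1, although its ratio was inside the limits. The second, chr15:90929200-90989399, spanned 60199 bases and overlapped UNC45A, HDDC3, RCCD1 and PRC1, which encodes a protein that bundles microtubules in cell division. Its means were 15.0 in H3.1/H3.2 and 13.8 in H3.3, a fold of 0.919 (0.879 to 0.961), while its H3.3 peak of 60 exceeded the H3.1/H3.2 peak of 42. The mean and the peak therefore pointed to different variants there.

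The third, chr20:31514400-31573199, held 58799 bases over HM13, which encodes signal peptide peptidase, with means of 13.3 and 14.6 and a fold of 1.10 (1.05 to 1.15). The fourth, chr12:113151800-113199799, was the most divided member, with 15 intervals over DDX54, RITA1 and IQCD. Its means were 10.2 and 10.9, its peaks 32 and 34, and its fold 1.06 (1.001 to 1.13), so both measures were close. The RITA1 and DDX54 starts in it lie head to head, and their promoter windows overlap. The fifth is not reported here.

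The sixth, chr20:63895600-63941999, overlapped DNAJC5 and UCKL1 and was also assigned TPD52L2 and 7 microRNA genes, 5 of them copies of MIR941. It carried 8 promoters and 8 CpG islands, and its means were 17.1 and 15.4 with peaks of 58 and 57. The remaining 4 were on chromosomes 6, 17 and 11, with 2 on chromosome 6. These were ATAT1 to MDC1 with means of 9.94 in H3.1/H3.2 and 11.3 in H3.3, MEA1 to MRPL2 with 14.9 and 13.4, PDE6G to SLC25A10 with 16.8 and 18.3, and KCNK7 to RELA with 16.2 and 15.8. The last, which overlapped MAP3K11, a mixed-lineage kinase gene, and had RELA assigned from outside it, had a fold of 0.976 (0.927 to 1.03), and its interval alone among the 10 included 1.

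**Figure D2:**
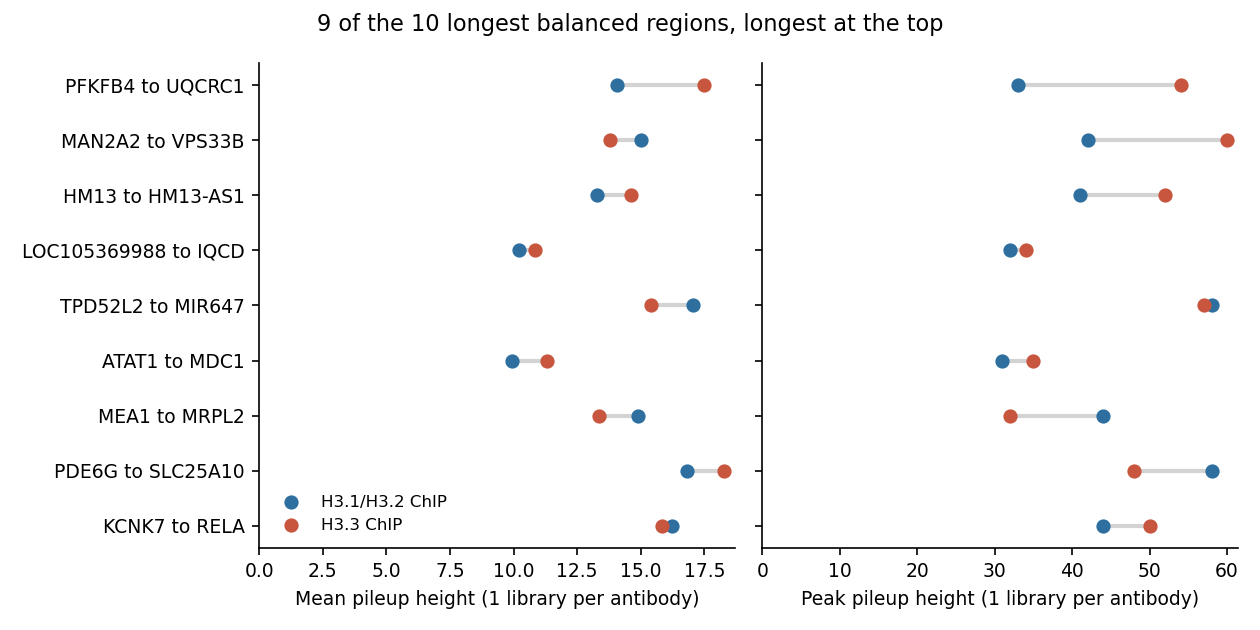
Mean (left) and peak (right) pileup heights of 9 of the 10 longest balanced regions, named by their first and last assigned gene, with 1 point per library and no replicate error. The rule keeps the means of both libraries close together in each region, at most 3.42 apart in the longest. The peaks, which it does not bound, differ by 21 in that region.

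IntervalCount is the number of called intervals merged into a region. In the whole table all 11061 regions with at least 2 intervals were called in both ChIPs, and none of the 56904 regions with 1 interval was, so the count is tied to calls in both libraries, as the rule is. Balanced regions held 1433 intervals, 25.9 per 100 kb. The median was 6 intervals per region (5 to 6) with a range from 2 to 15, against 4 in H3.3-leaning and 5 in H3.1/H3.2-leaning very long regions. No member consisted of a single interval, while 38 H3.3-leaning and 10 H3.1/H3.2-leaning regions did. At least 10 intervals were found in 13 members, of 30 such regions in the whole table.

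Per 10 kb, the median was 2.58 intervals in balanced regions and 1.91 in H3.3-leaning ones, a difference of 0.67 (0.54 to 0.89). Among regions called in both the difference was 0.55 (0.33 to 0.76). Against H3.1/H3.2-leaning regions, at 2.48, the difference was 0.10 (-0.13 to 0.38) and its interval included 0. It was 0.59 (0.17 to 0.95) among regions under 20000 bases and -0.17 (-0.43 to 0.14) among longer ones. Length and IntervalCount had a Spearman rho of 0.34 over the 243 members, against 0.38 in H3.3-leaning and 0.44 in H3.1/H3.2-leaning regions. The second largest counts, 13 each, were in 3 regions, those of PRC1 and of ATAT1 to MDC1 among them, followed by 12 in chr5:150367000-150403599 over TCOF1 and CD74. TCOF1 encodes treacle, a nucleolar protein needed for ribosomal RNA synthesis, and this region had means of 11.8 in H3.1/H3.2 and 10.2 in H3.3 with no promoter and no CpG island.

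**Figure D3:**
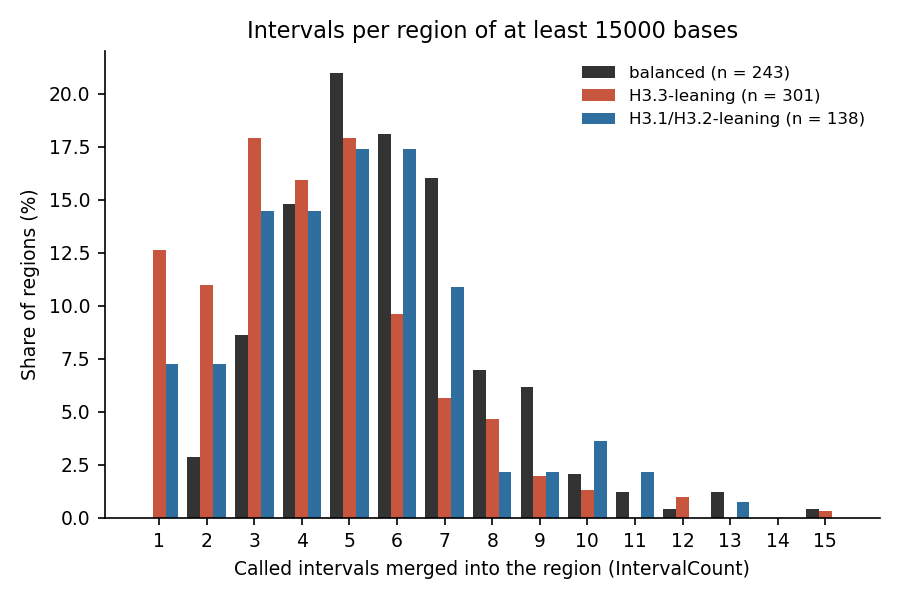
Share of regions (y axis, %) by the number of called intervals merged into them (x axis) for balanced, H3.3-leaning and H3.1/H3.2-leaning regions of at least 15000 bases. Balanced regions centre on 6 intervals and have none with 1, H3.3-leaning regions centre on 4.

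Gene annotation was not used by the rule. Every balanced region had at least 1 assigned gene. The authors assigned 756 genes in 809 assignments, of which 250 (30.9%) placed the region in the gene, 248 upstream of it and 311 downstream. For densities, a gene assigned to several regions was counted in each of them, and the intervals take such repeats as independent. The density was 14.6 assigned genes per 100 kb (13.6 to 15.7). It was 14.3 in H3.3-leaning regions, a difference of 0.36 (-1.01 to 1.73), and 11.9 in H3.1/H3.2-leaning regions, a difference of 2.71 (1.05 to 4.32). Assigned genes were thus denser than in H3.1/H3.2-leaning regions. Their difference from H3.3-leaning regions was not clear of 0, except with a ratio limit of 0.5, where it was 1.34 (0.02 to 2.64). Protein-coding genes that overlap in RefSeq, counted per region in the same way, numbered 8.47 per 100 kb in balanced regions. The H3.3-leaning ones had 7.39, a difference of 1.08 (0.06 to 2.10), and the H3.1/H3.2-leaning ones 7.20, a difference of 1.27 (-0.02 to 2.52). Both differences were of similar size, with the lower ends of their intervals near 0. The first was not clear of 0 among regions called in both, at 0.80 (-0.25 to 1.86). Nor was it under 20000 bases, at 0.95 (-0.87 to 2.83), or with peak heights, at 0.27 (-0.71 to 1.26). It stayed clear of 0 without chromosome 19, at 1.33 (0.22 to 2.47), and from 20000 bases, at 1.40 (0.20 to 2.62). For assigned genes the difference from H3.1/H3.2-leaning regions was no longer clear of 0 with a length minimum of 20000 bases or with peak in place of mean heights. Over all regions the density was 59.4 per 100 kb, a figure not comparable across lengths, since genes outside a region are assigned to it as well.

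Counting only genes whose start lay inside, balanced regions had 5.20 per 100 kb, H3.3-leaning regions 4.99 and H3.1/H3.2-leaning regions 3.19, and the last difference was 2.01 (1.07 to 2.90). A start lay inside 140 members (57.6%). The authors' promoters can be counted in regions with no start of an assigned gene inside, such as KPNA6 to DCDC2B with 2 promoters. An authors' promoter was counted in 180 members (74.1%), against 72.1% and 58.0% of H3.3-leaning and H3.1/H3.2-leaning regions, with differences of 1.98 points (-5.57 to 9.36) and 16.1 points (6.26 to 25.9). With peak heights the second difference was 6.01 points (-4.93 to 17.4). At least 3 promoters were found in 30.0%, 24.3% and 12.3%.

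A CpG island lay in 192 members (79.0%), which was 8.58 points (1.19 to 15.7) above the 70.4% of H3.3-leaning regions and 13.8 points (4.51 to 23.3) above the 65.2% of H3.1/H3.2-leaning regions. The first difference was fragile. Its interval included 0 in 6 of 12 other settings, among them leaning regions called in both, at 6.01 points (-1.47 to 13.3), and peak heights, at 0.90 points. The second included 0 in 2 of 12, the length minimum of 20000 bases and peak heights.

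A difference from both leaning sets was found in whole genes, 1 of several features compared and not among the results planned in advance. The intervals take regions as independent, although some members are close neighbours. At least 1 protein-coding gene lay entirely inside 91 members (37.4%), against 25.9% of H3.3-leaning regions, a difference of 11.5 points (3.69 to 19.3), and 15.9% of H3.1/H3.2-leaning regions, a difference of 21.5 points (12.4 to 29.6). Restricted to regions called in both the differences were 9.31 (1.13 to 17.4) and 20.3 points (10.8 to 28.6), and restricted to regions shorter than 20000 bases they were 13.3 (2.50 to 24.1) and 22.3 points (10.2 to 33.1). From 20000 bases they were 8.93 (-2.36 to 20.0) and 19.005 points (4.53 to 31.02). With balance defined on peak in place of mean heights they were 1.53 (-5.80 to 9.01) and 6.80 points (-3.96 to 16.2), so neither was then clear of 0. The opposite layout, a region inside a protein-coding gene that runs past both its ends, was found in 66 members (27.2%), against 34.9% and 48.6%. Its difference was -7.72 points (-15.3 to 0.13) from H3.3-leaning and -21.4 points (-31.2 to -11.3) from H3.1/H3.2-leaning regions, and the latter was -16.7 points (-27.9 to -5.13) with peak heights.

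The RefSeq genes that overlap the members were short. The 454 protein-coding ones had a median length of 16.2 kb (13.4 to 18.2), against 19.3 kb (16.6 to 22.8) in H3.3-leaning regions, 30.7 kb (25.5 to 38.0) in H3.1/H3.2-leaning regions and 24.2 kb over all 19974 protein-coding genes of RefSeq. The intervals overlapped between balanced and H3.3-leaning regions only. Protein-coding genes made up 76.6% of the 593 overlapping genes, with 64 long noncoding RNAs, 43 microRNAs and 9 small nucleolar RNAs. In H3.3-leaning regions they made up 66.6%, with 18.2% long noncoding RNAs.

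**Figure D4:**
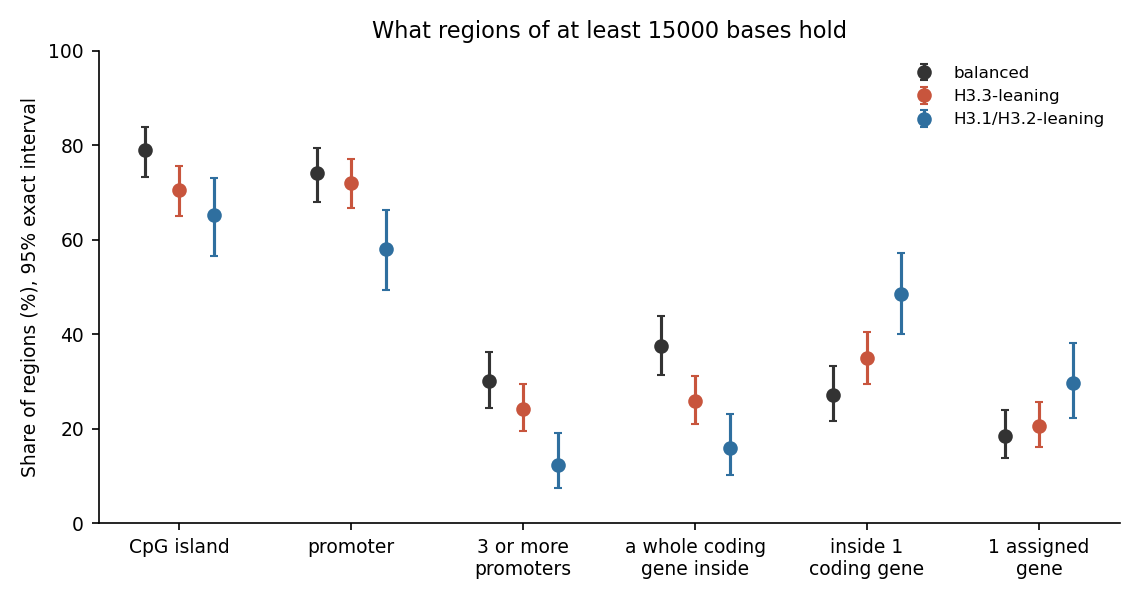
Share of regions of at least 15000 bases (y axis, %) with each feature (x axis), with exact 95% intervals over regions, for 243 balanced, 301 H3.3-leaning and 138 H3.1/H3.2-leaning regions. Balanced regions lie highest for CpG islands (79.0%) and for a whole protein-coding gene inside (37.4%), and lowest for lying inside 1 protein-coding gene (27.2%).

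Among themselves the members differed with their promoters. In the 63 regions with no promoter, median heights were 11.8 in H3.1/H3.2 and 11.7 in H3.3, and a CpG island lay in 47.6%. In the 107 with 1 or 2 promoters they were 12.3 and 12.3, with a CpG island in 84.1%. In the 73 with at least 3 promoters they were 13.6 (11.9 to 14.1) and 12.999 (11.9 to 13.9), with a CpG island in 98.6%. The medians of both libraries were higher with more promoters, and the intervals of neighbouring sets overlapped. The number of promoters and the mean of both heights had a Spearman rho of 0.20, against 0.23 in H3.3-leaning and 0.14 in H3.1/H3.2-leaning regions. Assigned genes numbered 7.85, 13.2 and 21.1 per 100 kb in these sets.

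Heights were also higher with more CpG islands. The 51 members without one had medians of 11.2 (10.9 to 11.8) for H3.1/H3.2 and 10.8 (10.4 to 11.7) for H3.3. The 71 with at least 3 had 13.7 (13.1 to 14.2) and 14.2 (13.4 to 14.6), so these intervals did not overlap in either library. Between them, the 121 with 1 or 2 islands had 12.1 (11.7 to 12.5) and 11.9 (11.3 to 12.5). Their intervals overlapped those of members without an island and lay below those of members with at least 3. Median peaks were 28 and 29 without an island and 37 and 40 with at least 3. Across the members the number of CpG islands and the mean of both heights had a Spearman rho of 0.46, a description over regions that share both libraries. It was 0.38 in H3.3-leaning and 0.48 in H3.1/H3.2-leaning regions, so this was not particular to balanced regions. Longer regions can hold more islands, and the median length was 19599 bases without one and 22599 with at least 3.

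The 5 tallest members were between 19199 and 23799 bases long. RNF123 to IP6K1 on chromosome 3, with 19799 bases and only 2 intervals, had means of 21.5 in H3.1/H3.2 and 20.0 in H3.3, and POLRMT to RNF126 on chromosome 19 had 19.6 and 19.8. PTDSS2 and RNH1 on chromosome 11 had 18.1 and 19.7. The region that overlapped FASN, the fatty acid synthase gene, held 9 CpG islands, the most of any member together with FOXK1 to AP5Z1 on chromosome 7, and had 18.9 and 17.8. The MROH6 to PYCRL region on chromosome 8 had 20.9 and 21.1. The lowest member lay inside CEP164, a centriole gene, with 8.51 and 7.09 and no CpG island. KPNA6 to DCDC2B had 9.08 and 7.79, AVIL to CTDSP2 9.52 and 7.81, and MRPL14 and TMEM63B had 8.46 and 8.97.

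The most gene-dense member by count, chr3:48993800-49033999, had 11 assigned genes, among them WDR6, IMPDH2, which encodes the rate-limiting enzyme of guanine nucleotide synthesis, QRICH1, MIR425 and MIR191. Its means were 14.6 in H3.1/H3.2 and 17.6 in H3.3, its peaks 40 and 60, and its fold 1.20 (1.14 to 1.27). A pair of neighbouring members on chromosome 9 were both assigned RPL7A, a ribosomal protein gene that neither overlapped. They had 15.5 and 12.4 in one and 13.3 and 12.0 in the other, and shared most of their assigned genes.

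At the other extreme, 38 members had 1 assigned gene and no promoter, and each overlapped that gene. The region in SMARCA4, the ATPase gene of the BAF chromatin remodelling complex, had 35999 bases with means of 15.4 in H3.1/H3.2 and 12.8 in H3.3 and peaks of 37 and 63, so the mean was higher for H3.1/H3.2 and the peak for H3.3. MAP2K2, which encodes the kinase MEK2, leaned the other way within the limits, with 13.8 and 16.5. Members inside 1 gene therefore covered both sides of 0. Several genes held more than 1 of these 38 regions. VAV2, which encodes a guanine nucleotide exchange factor, held 3, with log2 ratios of -0.15, 0.17 and 0.09, and DYNC1H1, the heavy chain of cytoplasmic dynein, held 2, at 0.23 and 0.11. NFIC, a transcription factor gene, held 2, at 0.21 and 0.15. CDC25A, which encodes a cell cycle phosphatase, had 10.1 and 9.79.

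Some members were neighbours that a short gap kept apart. Of the pairs of consecutive members on a chromosome, 9 lay within 5000 bases of each other and 41 within 50000. On chromosome 20, 4 members in a row were assigned to SS18L1, a subunit gene of a neuronal BAF complex, with a gap of 200 bases between the closest. Their H3.1/H3.2 means were 15.1, 12.1, 12.9 and 12.4 and their H3.3 means 13.9, 14.2, 13.3 and 11.6 along the chromosome. The NFIC pair lay 600 bases apart, and the DYNC1H1 and VAV2 pairs 1000. Such members share a gene and are not independent.

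Regions shorter than 15000 bases within 5000 bases of a member were the part of the surroundings that the rule did not use. Of the 243 members, 239 had at least 1, and 387 such neighbours were found in all with a median length of 3799 bases. They were called in both ChIPs in 56.3% (51.2 to 61.3), in H3.3 alone in 31.5% and in H3.1/H3.2 alone in 12.1%. Over all regions, of any length, these shares were 16.3%, 45.7% and 38.0%. Around H3.3-leaning regions 37.9% were called in both, a difference of 18.4 points (11.8 to 24.9), and around H3.1/H3.2-leaning regions 46.5%, a difference of 9.87 points (1.68 to 17.9). The median log2 ratio of the neighbours was 0.23 (0.12 to 0.34) around balanced, 0.89 around H3.3-leaning and -0.45 around H3.1/H3.2-leaning regions. By this ratio the flanks of balanced regions lay between the other sets, on the H3.3 side, near the median of 0.27 over all regions.

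Balanced regions were concentrated on a few chromosomes. Chromosome 19 held 43, chromosome 11 held 29, chromosome 20 held 27, chromosomes 3 and 9 held 22 each and chromosome 17 held 20. Together these 6 held 163 members (67.1%) and 31.8% of all regions. They were picked because they held the most members, which raises the balanced share beside those of the other sets. Other very long regions followed the same chromosomes, with 60.1% of H3.3-leaning and 60.9% of H3.1/H3.2-leaning regions on them, and the differences of 6.95 points (-1.21 to 14.9) and 6.21 points (-3.67 to 16.2) included 0. Median heights over all regions ran from 6.93 to 8.02 on these 6 chromosomes and from 5.61 to 7.22 on the other 17, and their part in these counts was not tested. Chromosomes 2, 13 and 18 held no member, and chromosome 1, with 6826 regions, held 5. Without chromosome 19, a whole protein-coding gene lay inside 36.5% of members.

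**Figure D5:**
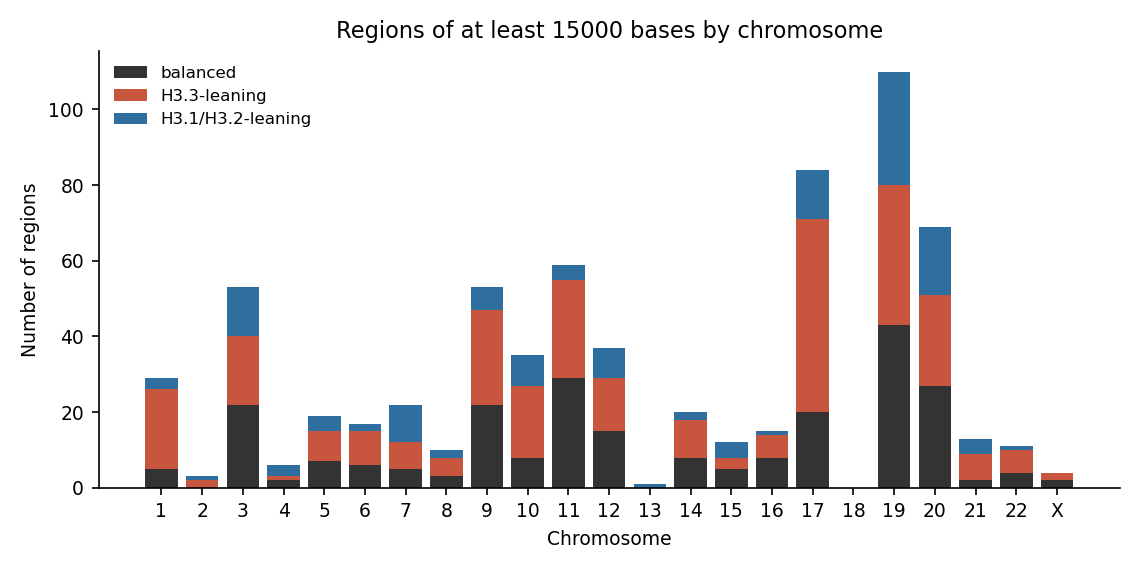
Number of regions of at least 15000 bases (y axis) on each chromosome (x axis), stacked by balanced, H3.3-leaning and H3.1/H3.2-leaning. Chromosome 19 has the most, 43 of them balanced, and chromosome 18 has none.

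Of all 21948 gene symbols in the table, 756 (3.44%) were assigned to a balanced region, against 883 (4.02%) for H3.3-leaning and 327 (1.49%) for H3.1/H3.2-leaning regions, and gene lists are read beside these shares. Of 28 chromatin regulators 7 were assigned, against 4 in H3.3-leaning and 6 in H3.1/H3.2-leaning regions. Besides SMARCA4 these included DOT1L, the H3 lysine methyltransferase of transcribed genes, with 17.6 in H3.1/H3.2 and 17.9 in H3.3, and KMT2D, a lysine methyltransferase of enhancers, with 12.1 and 11.1. CHAF1A, the large CAF-1 subunit, and SETD2 were assigned through regions outside the gene, with 12.7 and 10.6 upstream of CHAF1A and 11.4 and 12.3 downstream of SETD2. The counting intervals of DOT1L and SETD2 included 1. SMARCA4 and DOT1L were also assigned to H3.1/H3.2-leaning very long regions, and CHAF1A to leaning regions of both kinds.

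Of 17 actin cytoskeleton genes 5 were assigned, against 7 in H3.3-leaning and 0 in H3.1/H3.2-leaning regions. ACTN1, the alpha-actinin gene, held 3 balanced regions, with means of 12.0 and 11.4, 12.2 and 10.2, and 14.03 and 12.7. TLN1, which encodes the integrin adaptor talin, had 12.9 and 10.7, and TPM4, a tropomyosin gene, 12.4 and 13.8, while the region of PXN lay downstream of it, with 11.0 and 10.7. ACTN1 and PXN were also assigned to H3.3-leaning regions, so a gene can be assigned to regions of both kinds. Of 17 matrix genes with a region 2 were assigned, against 4 in H3.3-leaning and 0 in H3.1/H3.2-leaning regions. These were COL7A1 in the longest region and COL5A1, a fibrillar collagen gene, with 11.9 and 10.3. COL5A1 was also assigned to an H3.3-leaning region. Of 14 cell cycle genes 2 were assigned, against 2 in each leaning set. AURKA, a mitotic kinase gene, had 10.5 and 9.11 and was also assigned to an H3.1/H3.2-leaning region, and CCND3 is given above.

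None of 20 mesenchymal effectors, 19 TGF-beta and SMAD genes, 19 immediate early genes, 15 housekeeping genes or 8 luminal breast genes was assigned, and 1 each of 15 EMT factors (TCF3, with the region downstream) and 21 epithelial genes (LLGL2, with the region upstream). In H3.3-leaning regions the mesenchymal effectors, immediate early genes and housekeeping genes gave 2 each, and the other lists just named gave 0. All these lists gave 0 in H3.1/H3.2-leaning regions. The lists are short beside the share of 3.44% over all genes, so nothing is read from a 0. The markers of immune, of neuronal and glial, of endothelial and fibroblast, and of liver and blood cells gave 0 of 2, 3, 4 and 1 genes with a region. Of the neuronal and glial markers 1, a glial gene, was assigned to an H3.3-leaning region. Of 966 microRNA genes 68 (7.04%) were assigned to balanced, 77 (7.97%) to H3.3-leaning and 20 (2.07%) to H3.1/H3.2-leaning regions, many in clusters that share a region. Small nucleolar RNA genes were at 10 of 291 (3.44%), against 34 in H3.3-leaning and 2 in H3.1/H3.2-leaning regions. Of 631 antisense genes 13 were assigned, against 26 and 4, of 416 ZNF genes 5 (1.20%), against 0 and 10, and of 313 LINC RNA genes 1 (0.32%), against 8 and 0. Ribosomal protein genes were at 3 of 83, against 14 in H3.3-leaning and 1 in H3.1/H3.2-leaning regions. No transfer RNA gene of 232 was assigned, against 8 in H3.3-leaning and 4 in H3.1/H3.2-leaning regions. No replication-dependent histone gene of 44 was assigned to balanced or to leaning regions.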

How the data were processed

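Sonicated chromatin of the LM2 cells was immunoprecipitated and sequenced, per the labels' protocols. BWA, SICER and hg38 are named, per the submitters' processing notes, without versions or settings. The authors deposited 1 table of merged regions with a pileup signal of each ChIP library, the mean and the highest height per region, and a log2 ratio, per the file headers. Here log2((H3.3 + 1)/(H3.1/H3.2 + 1)) of the mean heights was computed (pseudocount 1), and 4 regions on chromosome Y were left out. Coordinates are the deposited ones, which move in steps of 200 bases and may count from 0 or 1. CpG islands, promoters and gene assignments are the authors' annotation.

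A region's tags were estimated from its mean height and length with the table's own constant of 224 bases per tag. Fold intervals are exact conditional, shares Clopper-Pearson, medians binomial order-statistic, rates exact Poisson, differences of shares Newcombe, and other differences combine both intervals in quadrature. If heights had been scaled, tags and intervals would be off accordingly. Whole-library depth is unknown. The interval calculations were tested on simulated data.

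Of 756 assigned genes, 723 matched RefSeq (GRCh38.p14), directly or by older symbols, which gave gene spans, types and promoter windows. Overlapping genes are those whose RefSeq span meets a region. Named regions were the 10 longest, the 5 with most intervals, most genes, highest and lowest heights, the 5 with the largest peak ratio each way, those nearest each limit and those of the gene lists, 15 by symbol and 8 by name pattern. Single-gene members, neighbouring pairs and the printed promoters were chosen after their values were seen. Some genes that these rules select are not reported here and remain in the counts. Members and lists were chosen with earlier results of these data known. Alternatives were other length minima, ratio limits and pseudocounts, peak heights, a centring, a height minimum and starts inside. Leaving out chromosome 19, only regions called in both and regions under 20000 bases were added after seeing the data, as were all settings, the length minimum of 20000 and peak heights included, for the differences in whole genes, lying inside 1 gene, promoters and intervals per 10 kb. Python 3.11.15, pandas 2.3.3, numpy 2.4.6, scipy 1.17.1 and matplotlib 3.10.9 were used.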

Additional observations from a re-analysis of the deposited data

How the results depend on the processing

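No paired analysis was possible because each group held 1 library. Of 149 values recomputed over 18 results and 13 settings, 127 stayed within the interval of the value given (counts of regions within 1.5 times it) and 22 moved further. Some of the 127 could hardly move, so their number does not measure robustness. The height minimum of 6.83 kept all 243 balanced regions, and the rule fixes much of the share called in both ChIPs. No difference whose interval lay clear of 0 changed its direction. The number of balanced regions was 131 with a length minimum of 20000 bases, 541 with 10000, 375 with a ratio limit of 0.5 and 374 with a pseudocount of 10. Assigned genes per 100 kb were 12.6 with a length minimum of 20000, 17.6 with 10000 and 5.20 with starts inside only. The promoter share was 67.7% with a length minimum of 10000 and 67.5% with peak heights, and the CpG island share 69.7% with a length minimum of 10000. With peak heights the CpG island share was 0.90 points above that of H3.3-leaning regions (-6.41 to 7.9999). In regions of 15000 to 20000 bases, genes per 100 kb exceeded those of H3.1/H3.2-leaning regions by 4.90. With peak heights, differences from H3.3-leaning regions were 1.53 points for whole protein-coding genes, 1.58 for lying inside 1 gene, -6.71 for promoters and 0.44 intervals per 10 kb, and from H3.1/H3.2-leaning regions 6.80 points for whole genes and 6.01 for promoters. Differences in intervals per 10 kb from H3.3-leaning regions were 1.13 under and 0.46 from 20000 bases, and from H3.1/H3.2-leaning regions 0.59 and -0.17. The cause of these moves was not tested. Depth limits which members can be told from a fold of 1, and 1 library per antibody leaves the spread between replicates unknown.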
